A study of Arabidopsis thaliana with 4 samples.

Results

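Plastids keep a small genome of their own, and 26 of its genes are described here in dissected shoot apices of Arabidopsis thaliana. They are the plastid-encoded genes that do not code for a subunit of a photosynthetic complex. The members were the genes with a plastid locus tag whose symbol does not begin with psa, psb, pet, atp, ndh or rbcL, each measured by its brightest probe set, and they were 26 of the 69 plastid-encoded genes that had a probe set paired with 1 gene. The other 43 plastid-encoded genes code for photosystems, the cytochrome complex, ATP synthase, the NDH complex and Rubisco. The 26 genes make up 3 classes. Of these, 4 encode subunits of the plastid RNA polymerase, 15 encode ribosomal proteins and 7 have other roles. Each member had 1 probe set, none of them with a name that marks matches to several genes. The whole table held 22746 probe sets without the controls and 13356 genes with a probe set of their own. The plastid genes rpl2, rpl23, rps7, rps12 and ycf2 are not among the members, because their probe sets were paired with more than 1 gene entry.

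The plastid genome is transcribed by 2 kinds of RNA polymerase. One is a bacterial-type enzyme whose core is encoded by the plastid genes rpoA, rpoB, rpoC1 and rpoC2 and which needs sigma factors made from nuclear genes. The other is a phage-type enzyme encoded in the nucleus, and the rpoB unit and accD are textbook examples of its targets. The transcripts are read by bacterial-type ribosomes, whose proteins are encoded partly in the plastid and partly in the nucleus. In the shoot apex the plastids of the meristem are small proplastids, which build their transcription and translation apparatus as they turn into the chloroplasts of young leaves. Many plastid genes are transcribed together from 1 unit and cut apart afterwards.

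The study compared apices of wild-type plants of the Col-0 accession under 2 light regimes. The group called SD30 here was grown for 30 days in short days. The group called SD30_LD7 had the same 30 short days and then 7 long days, which induce flowering in this species. Both groups shared the genotype and the tissue, and each had 2 samples on 1 oligonucleotide array each. The shifted plants were also 7 days older, so day length and age cannot be told apart. Nothing in the labels ties the samples to separate plantings, so the spread behind each p-value is that of these arrays and may be technical.

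The values are linear intensities that the authors had brought to a common level, with a median over all probe sets of 206.9 to 220.5 on the 4 arrays. Intensities of the members ran from 259.6 to 11584, far above 23.5, the value below which intensities were set to a floor. An intensity compares 1 probe set between arrays and does not rank the amounts of different transcripts. Arrays of a group correlated at 0.985 and 0.987 across the probe sets tested, and arrays of different groups at 0.942 to 0.948. The meristem marker CLV3 had intensities of 72.6 to 103.5 and ULT1 of 986 to 1163, while the other 4 genes of the meristem list were not analysed here. Of the trichome and guard cell list 3 of 4 genes were measured, of which the stomatal lineage gene SPCH fell (-0.57 ± 0.15, limma adjusted p = 0.026) and TRY and FAMA did not pass, and the vascular list was not analysed here. Control probes report on RNA integrity. For actin the 3' signal was above the 5' signal by 6.51 and 5.72 times in SD30 and by 8.27 and 4.64 times in SD30_LD7. For GAPDH these ratios were 1.777 and 2.045 in SD30 and 2.646 and 1.574 in SD30_LD7. For ubiquitin they were 3.145 and 3.435 in SD30 and 3.274 and 2.355 in SD30_LD7. In each control SD30_LD7 replicate 1 had a higher ratio than SD30_LD7 replicate 2. The part of RNA integrity in the results was not tested.

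The comparison asks whether transcripts of the plastid's expression apparatus, and of the members with other roles, differ between short-day and shifted apices. Their signals were lower after the shift. All 26 members had a negative log2 difference (SD30_LD7 minus SD30), from -0.86 for rps15 to -0.18 for rpoA, with a median of -0.44. Of the 26, 11 fell at an adjusted p below 0.05 in limma, 0 rose and 15 did not pass. The background share was 8.2% of all 15922 probe sets tested called lower and 6.8% called higher, against 42.3% of the members called lower. The shares were not matched for brightness. The median log2 intensity in SD30 was 12.05 and 11.93 for the members and 8.77 and 8.80 for all probe sets tested. Members of a shared transcription unit are also not independent of each other. The median over all probe sets tested was -0.0021. The genes that fell were rpoB of the RNA polymerase, 7 ribosomal protein genes (rps2, rps3, rps14, rps15, rpl14, rpl20 and rpl22), accD, cemA and ycf3. These are bulk samples, in which fewer cells with many plastids and less plastid RNA per cell cannot be told apart. Whether the signal of the plastid transcripts followed their amount alone was not tested.

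On single arrays the order was the same for most members. Both SD30_LD7 arrays lay below both SD30 arrays for 22 of the 26, or 84.6%, against a background of 26.9% of all probe sets tested. The 4 members whose groups overlapped were rpoC2, rpl33, rps16 and matK. The median log2 intensity over the members was 12.05 and 11.93 on the SD30 arrays and 11.49 and 11.41 on the SD30_LD7 arrays. The summed intensity of the 26 genes was 114473 and 107656 on the SD30 arrays but 85252 and 83495 on the SD30_LD7 arrays, so the 2 arrays of a group lay closer to each other than to those of the other group. At the level of single genes the arrays of a group did not share 1 order: SD30 replicate 1 lay above replicate 2 for 18 of the members, and SD30_LD7 replicate 1 above replicate 2 for 14.

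**Figure D1:**
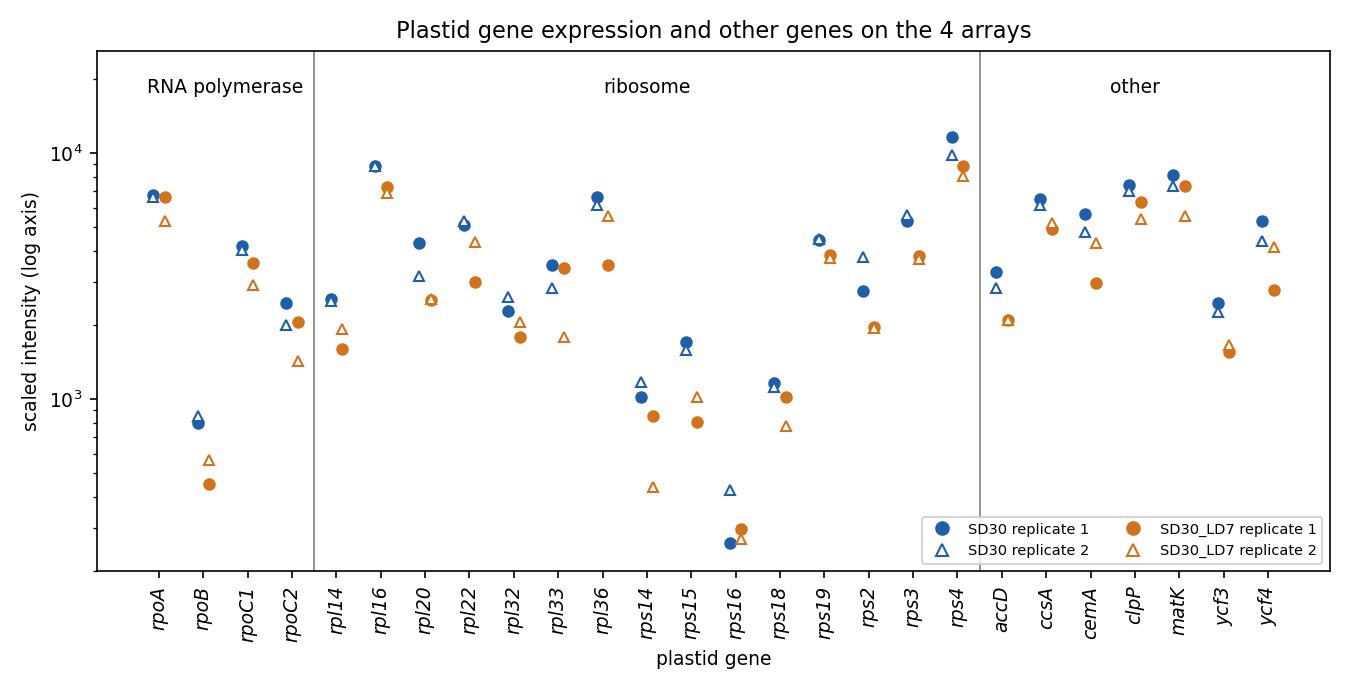
Scaled intensity (log axis) of each of the 26 plastid genes on the 4 arrays, by class, with SD30 in blue and SD30_LD7 in orange, replicate 1 as filled circles and replicate 2 as open triangles. For 22 genes both orange points lie below both blue points, and the exceptions are rpoC2, rpl33, rps16 and matK.

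The count of members called depended on the arrays and on the model. It was smaller with either SD30 array left out and larger with either SD30_LD7 array left out. The share of all probe sets called lower was smaller than as reported in each of these 4 fits. The median log2 difference of the members stayed between -0.50 and -0.39 in these fits. In each, the lone array of a group was taken to vary like the other group. With the arrays centred on their medians, and likewise with a higher floor, 7 were called. The shares of all probe sets tested called lower were 6.59% and 6.46% in these cases. In both, rps14, rpl20, rpl22 and cemA missed the threshold (limma adjusted p of 0.056 to 0.12). With no filter on dim probe sets limma called 0 of the 26 and 152 of all 22746 probe sets. In that fit 10 members had an unadjusted limma p below 0.05. Without an intensity trend limma called 2, rpoB and rps15, beside 5.88% of all probe sets tested called lower.

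Of the RNA polymerase genes, 1 of 4 fell, and the class had a median log2 difference of -0.37. The gene rpoB, for the beta subunit, had intensities of 798.6 and 855.6 in SD30 and of 450.5 and 567.9 in SD30_LD7. Both shifted arrays were clearly lower, and the level after the shift was 61.2% of that in short days. The log2 difference was -0.71 ± 0.13 (SE, n = 2 per group, limma adjusted p = 0.0033). The call was lost without SD30 replicate 2 (adjusted p = 0.052).

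The other subunit genes did not pass. The gene rpoC1, for the beta-prime subunit, had 4198.8 and 4051.4 in SD30 and 3572.6 and 2908 in SD30_LD7, without overlap, and a log2 difference of -0.36 ± 0.12 (limma adjusted p = 0.071). For rpoC2, the gene of the subunit called beta-double-prime, the values were 2463.8 and 2001 in SD30 and 2053 and 1427.2 in SD30_LD7. One shifted array thus lay within the SD30 range, and the log2 difference of -0.38 ± 0.16 did not pass (limma adjusted p = 0.15). Without SD30_LD7 replicate 1, the higher of the shifted arrays for both genes, rpoC1 had -0.50 (adjusted p = 0.014) and rpoC2 -0.64 (adjusted p = 0.0077). With SD30_LD7 replicate 2 left out instead, rpoC1 had -0.21 (adjusted p = 0.38) and rpoC2 -0.11 (adjusted p = 0.73), and rpoC2 had -0.23 without SD30 replicate 1. The gene rpoA, for the alpha subunit, had 6764.3 and 6651.9 in SD30 and 6616.5 and 5268.3 in SD30_LD7. The first shifted array lay next to the short-day arrays, and the log2 difference of -0.18 ± 0.13 (limma adjusted p = 0.43) had a 95% interval of -0.47 to 0.10. It was -0.35 without SD30_LD7 replicate 1 and -0.02 without SD30_LD7 replicate 2. The median of this class was the least settled, at -0.16 without SD30_LD7 replicate 2 and -0.52 without SD30_LD7 replicate 1.

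Of the ribosomal protein genes, 7 of 15 fell, and the class had a median log2 difference of -0.53. The large-subunit genes contributed 3 of 7 and the small-subunit genes 4 of 8, with medians of -0.53 and -0.44. The ranges of the classes overlapped widely, from -0.54 to -0.33 for large-subunit and from -0.86 to -0.23 for small-subunit genes, and no difference between the classes was tested.

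The largest fall of any member was that of rps15, a small-subunit gene, from 1710.7 and 1587.7 in SD30 to 809.6 and 1022 in SD30_LD7. This is 55.2% of the short-day level, with groups far apart. Its log2 difference was -0.86 ± 0.12 (limma adjusted p = 5.0e-04), and it was called without any 1 of the 4 arrays (-1.03 to -0.69).

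The small-subunit gene rps14 had 1023 and 1171.1 in SD30 and 855.3 and 441.1 in SD30_LD7. Both shifted arrays were lower, but they differed from each other about as much as the groups did. The log2 difference was -0.83 ± 0.23 (limma adjusted p = 0.027). It rested on SD30_LD7 replicate 2, without which it came to -0.36 (adjusted p = 0.16), whereas leaving out SD30_LD7 replicate 1 gave -1.31. The call was also lost without SD30 replicate 1 (0.077) or SD30 replicate 2 (0.22).

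For rps2, also of the small subunit, the arrays read 2739.4 and 3762.5 in SD30 and 1955.4 and 1939.1 in SD30_LD7. The shifted arrays were nearly equal and the spread lay in short days. The log2 difference was -0.72 ± 0.14 (limma adjusted p = 0.0036), and without SD30 replicate 2 it was -0.49 (adjusted p = 0.052). The large-subunit gene rpl20 showed the same kind of spread, with 4295.3 and 3168.3 in SD30 and 2527.9 and 2552.6 in SD30_LD7. It fell by 0.54 ± 0.14 on the log2 scale (limma adjusted p = 0.019), but without SD30 replicate 1, the higher array, it had -0.32 and missed the threshold (adjusted p = 0.19).

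In the middle of the class, rps3, rpl14 and rpl22 fell by nearly the same amount. The small-subunit gene rps3 went from 5435 ± 197 to 3768 ± 84.7 (mean ± SD, n = 2 per group), a log2 difference of -0.53 ± 0.11 (limma adjusted p = 0.0058, or 0.086 without SD30 replicate 2). The large-subunit gene rpl14 went from 2527 ± 23.3 to 1761 ± 222, also -0.53 ± 0.11 (limma adjusted p = 0.0075). Leaving out SD30 replicate 1 (0.054), SD30 replicate 2 (0.065) or the first SD30_LD7 array (0.057) took it just past the threshold. The large-subunit gene rpl22 went from 5212 ± 136 to 3677 ± 957, with a log2 difference of -0.53 ± 0.15 (limma adjusted p = 0.037). It had -0.26 without SD30_LD7 replicate 1 (adjusted p = 0.23) and -0.80 without SD30_LD7 replicate 2, and missed the threshold without SD30 replicate 1 (0.14) or SD30 replicate 2 (0.225). The large-subunit gene rpl36 had the same log2 difference of -0.53 but a wider SE of 0.17 and did not pass (limma adjusted p = 0.061). Its shifted arrays stood at 3522.5 and 5524.9, which is an array difference like that of rpl22, and it passed without SD30_LD7 replicate 2 (-0.86, adjusted p = 2.2e-04) but had -0.21 without SD30_LD7 replicate 1 (adjusted p = 0.37).

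A further group had log2 differences near -0.35 and did not pass. The small-subunit gene rps18 went from 1140 ± 27.7 to 898 ± 170.2 (-0.36 ± 0.13, limma adjusted p = 0.094) and the large-subunit gene rpl32 from 2442 ± 240 to 1926 ± 196 (-0.34 ± 0.12, limma adjusted p = 0.070). Neither gene's groups overlapped, but both values moved with single shifted arrays. For rps18 the log2 difference was -0.55 without SD30_LD7 replicate 1 (adjusted p = 0.017) and -0.16 without SD30_LD7 replicate 2 (adjusted p = 0.57), and for rpl32 it was -0.24 (adjusted p = 0.33) and -0.45 (adjusted p = 0.047) in the same order. The large-subunit gene rpl33 had 3509.6 and 2827.4 in SD30 but 3410.6 and 1781.9 in SD30_LD7, so that 1 shifted array lay inside the short-day range. Its log2 difference of -0.35 ± 0.23 (limma adjusted p = 0.36) rested on SD30_LD7 replicate 2, without which it was 0.11, whereas leaving out the other shifted array gave -0.82 (adjusted p = 9.6e-04).

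The smallest differences of the class were those of rps19, rps16, rpl16 and rps4. The large-subunit gene rpl16 had 8878.4 and 8875.9 in SD30 and 7258 and 6846.4 in SD30_LD7, and the groups were well apart relative to their own spread. The log2 difference of -0.33 ± 0.12 still did not pass in limma, which shares the spread over all probe sets (adjusted p = 0.089). The small-subunit gene rps4 had 11584 and 9788.3 in SD30 against 8852.6 and 8050.3 in SD30_LD7 (-0.34 ± 0.14, limma adjusted p = 0.13). Quantile normalization brought rpl16 and rps4 past the threshold (adjusted p of 0.0365 and 0.0457), with rpoC1 (0.047) and ccsA (0.0491), and lost the calls of rpl22 (0.0738) and cemA (0.0624). Centring the arrays on their medians gave rpl16 and rps4 adjusted p of 0.231 and 0.303. For rps19, a small-subunit gene, the arrays read 4421.1 and 4489.2 in SD30 and 3861.5 and 3748.7 in SD30_LD7, a small difference without overlap of -0.23 ± 0.11 (limma adjusted p = 0.20). The small-subunit gene rps16 had 259.6 and 428.1 in SD30 and 296.1 and 271.4 in SD30_LD7. Its short-day arrays enclosed the shifted ones, the log2 difference of -0.23 ± 0.21 had a 95% interval of -0.69 to 0.22 (limma adjusted p = 0.54), and without SD30 replicate 2 it was 0.13.

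**Figure D2:**
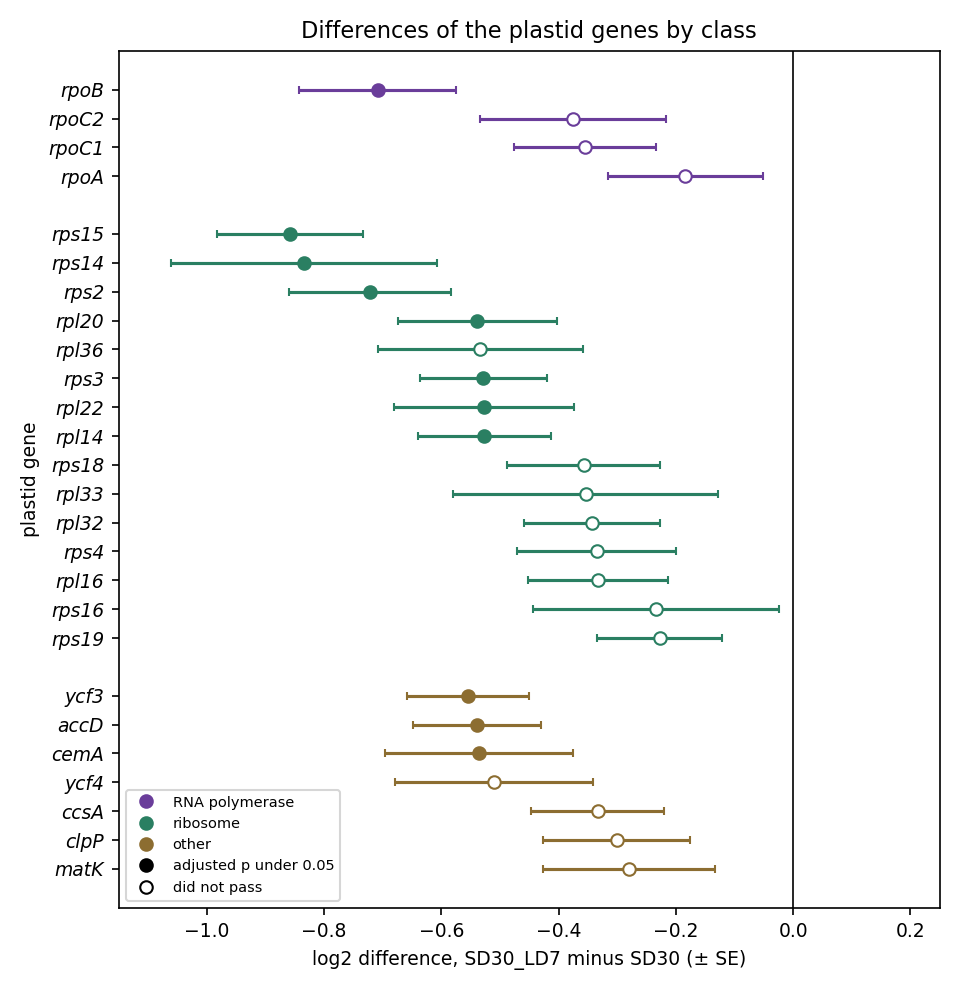
Log2 difference (SD30_LD7 minus SD30) with its SE for the 26 plastid genes, ordered by size within the RNA polymerase, ribosome and other classes, with filled points for an adjusted p below 0.05. Every point lies below 0, and the 11 filled ones are 1 polymerase gene, 7 ribosomal protein genes and 3 others.

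Of the 7 members with other roles, 3 fell, with a median log2 difference of -0.51 over the class. The gene accD codes for a carboxyltransferase subunit of the plastid acetyl-CoA carboxylase, which feeds fatty acid synthesis. It had 3274.9 and 2836.3 in SD30 and 2095.1 and 2101 in SD30_LD7. The shifted arrays were all but equal and stood at 68.8% of the short-day level. Its log2 difference was -0.54 ± 0.11 (limma adjusted p = 0.0052, or 0.069 without SD30 replicate 1).

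The product of ycf3 helps to assemble photosystem I. The gene had 2457.1 and 2250 in SD30 and 1551.2 and 1653 in SD30_LD7, and with its tight groups it fell by 0.55 ± 0.10 on the log2 scale (limma adjusted p = 0.0033). With rps15 it was 1 of the 2 members called without any 1 of the 4 arrays. The gene ycf4, whose product also serves photosystem I assembly, had 5303.8 and 4397.5 in SD30 and 2768.5 and 4153.4 in SD30_LD7. The shifted arrays lay far from each other and the second nearly reached the short-day range, so that the log2 difference of -0.51 ± 0.17 did not pass (limma adjusted p = 0.064). Without SD30_LD7 replicate 2 it was -0.80 (adjusted p = 8.8e-04), and without SD30_LD7 replicate 1 only -0.22 (adjusted p = 0.40).

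The gene cemA, for a protein of the plastid envelope, showed the same array pattern. Its arrays read 5628.4 and 4760.1 in SD30 and 2969.2 and 4297.6 in SD30_LD7. It fell by 0.54 ± 0.16 on the log2 scale (limma adjusted p = 0.042), close to the threshold. The value was -0.27 without SD30_LD7 replicate 1 (adjusted p = 0.26) and -0.80 without SD30_LD7 replicate 2, and the call was also lost without SD30 replicate 1 (0.27) or SD30 replicate 2 (0.12).

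The last 3 genes of the class did not pass. The gene ccsA, for a protein that attaches haem to c-type cytochromes, had 6529.7 and 6163.5 in SD30 and 4887.7 and 5185.7 in SD30_LD7, with no overlap (-0.33 ± 0.11, limma adjusted p = 0.073). The gene clpP codes for a proteolytic subunit of the plastid Clp protease. Its values were 7441 and 6989.5 in SD30 and 6341.3 and 5404.1 in SD30_LD7, again without overlap (-0.30 ± 0.12, limma adjusted p = 0.14). The gene matK, for a factor of intron splicing, had 8159.7 and 7343.4 in SD30 and 7358.7 and 5528.6 in SD30_LD7. Its groups overlapped by a small margin, and the log2 difference was -0.28 ± 0.15 (limma adjusted p = 0.26, with a 95% interval of -0.60 to 0.04). Without SD30_LD7 replicate 1, clpP had -0.42 (adjusted p = 0.043) and matK -0.49 (adjusted p = 0.021). With SD30_LD7 replicate 2 left out instead, clpP had -0.19 (adjusted p = 0.445) and matK -0.07 (adjusted p = 0.825).

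Several members lie side by side on the plastid genome in known transcription units, and neighbours did not always have differences of 1 size. In the rpoB unit, which the nucleus-encoded polymerase transcribes, the first gene rpoB had -0.71, while rpoC1 and rpoC2 behind it had -0.36 and -0.38. The accD gene, also served by that polymerase, had -0.54. All members ran from -0.86 to -0.18, and a difference by polymerase was not tested.

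In the ribosomal protein unit that ends in rpoA, the 7 members measured were, in order of transcription, rps19 at -0.23, rpl22 and rps3 at -0.53 each, rpl16 at -0.33, rpl14 and rpl36 at -0.53 each, and rpoA at -0.18. The 3 calls of this unit lay between genes that did not pass. In the accD to petA unit the 2 members after accD, ycf4 and cemA, had -0.51 and -0.54, and the photosynthetic genes psaI and petA of the same unit had -0.35 and -0.22 and did not pass. The genes rpl33 and rps18 of a further unit had -0.35 and -0.36. The photosynthetic gene psaJ, next to rpl33 on the plastid genome, had -0.27 and did not pass (limma adjusted p = 0.228).

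For rps2, rps15 and rps14, which also lie beside photosynthetic genes, the values were as follows. The gene rps2 at -0.72 precedes genes of ATP synthase, of which atpI had -0.68 and atpF -0.73, both called, atpH -0.50, also called, and atpA -0.39 (limma adjusted p = 0.099). The gene rps15 at -0.86 stands before the ndhH unit, in which 4 of the 7 genes were called lower, ndhA at -0.67, ndhG at -0.56, ndhE at -0.58 and psaC at -0.71. The 3 that did not pass were ndhH, next to rps15, at -0.12 (limma adjusted p = 0.77), ndhI at -0.30 (0.22) and ndhD at -0.41 (0.059). The gene rps14 at -0.83 follows psaA and psaB, which had -0.37 and -0.10 and did not pass. The differences between neighbours were not tested.

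**Figure D3:**
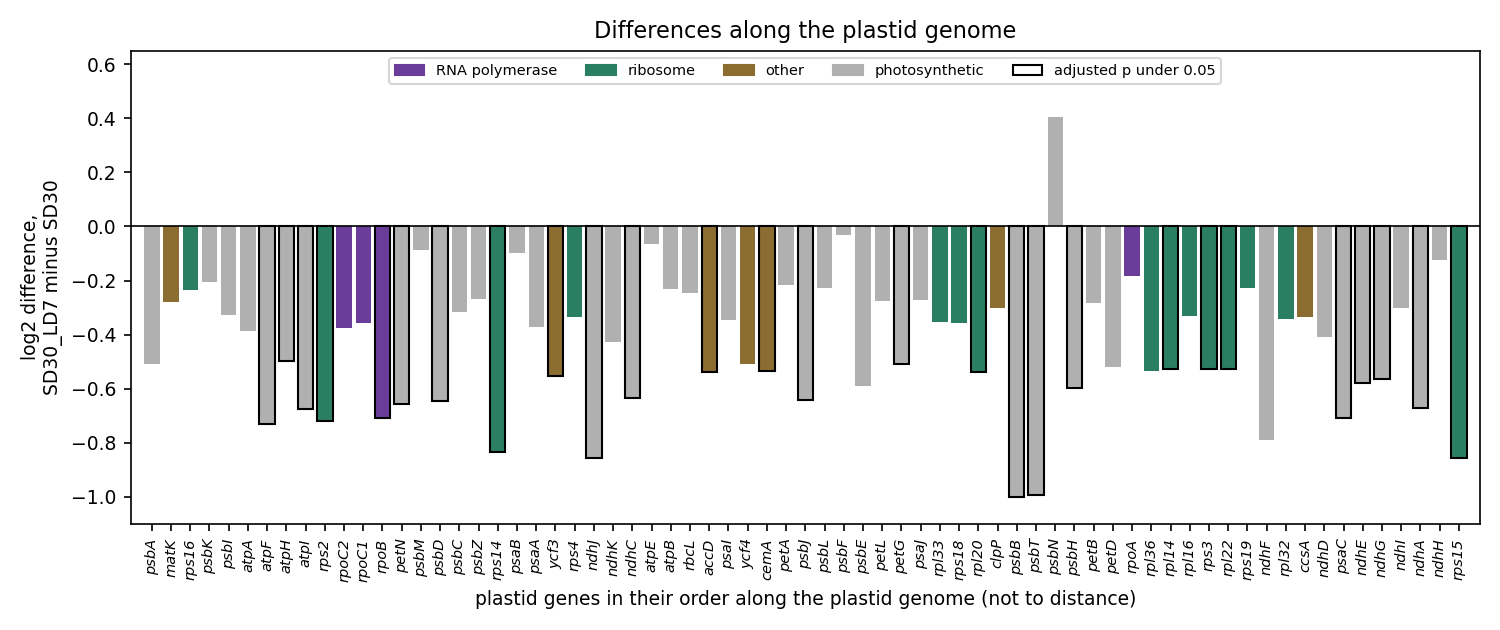
Log2 difference (SD30_LD7 minus SD30) of the 69 plastid-encoded genes in their order along the plastid genome, coloured by class, with black outlines for an adjusted p below 0.05. The 26 coloured bars all point down, as do 42 of the 43 grey bars of the photosynthetic genes.

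The photosynthetic genes of the same genome moved much like the members. Of 43, 16 fell and 0 rose, which is 37.2% called lower against the 42.3% of the members, and 42 of the 43 had a negative log2 difference. Their median was -0.41 beside the -0.44 of the members, with a range of -1.0 to 0.41. The difference between these sets was not tested.

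Transcripts of the other organelle genome had log2 differences on both sides of 0. Of 11 mitochondrion-encoded genes that could be matched by symbol, 9 were bright enough to test, and of these 0 were called in either direction, with 1 at an unadjusted limma p below 0.05. Their log2 differences ran from -0.24 to 0.33 with a median of 0.04, and 4 of the 9 were negative. For 0 of the 9 did both SD30_LD7 arrays lie below both SD30 arrays, and for 2 both lay above. Over all probe sets tested these shares were 26.9% and 27.6%, and 8.2% were called lower and 6.8% higher. The SE of these genes was 0.14 to 0.37 on the log2 scale, against 0.10 to 0.23 for the members. Their median log2 intensity was 8.77 and 8.93 in SD30 and 8.94 and 8.46 in SD30_LD7, so that the shifted arrays lay on either side of the short-day ones.

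Nuclear genes whose products work with those of the members could be followed only in small part. The lists were written by locus from general knowledge, and a locus entered only where the annotation used here pairs a probe set with it alone, so the counts do not show what the array holds. Of a list of 31 loci for nuclear-encoded proteins of the plastid ribosome, 7 were matched, and all 7 had a negative log2 difference, from -0.36 to -0.14 with a median of -0.21. Of these 1 fell, AT3G54210, from 3188 ± 106 to 2492 ± 219.8 (-0.36 ± 0.11, limma adjusted p = 0.045), and 6 did not pass. Of 20 loci for sigma factors, phage-type polymerases and polymerase-associated proteins, the 1 matched, AT5G15700, had -0.04 ± 0.20 (limma adjusted p = 0.92). Of 11 loci for nuclear partners of ClpP, 2 were matched and did not pass. The locus AT1G09130 had -0.22 ± 0.10 (limma adjusted p = 0.20), with both shifted arrays below both short-day arrays, and CLPP4, another proteolytic subunit, had -0.10 ± 0.10 (limma adjusted p = 0.59), also without overlap. The nuclear genes of the acetyl-CoA carboxylase list were not analysed here.

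**Figure D4:**
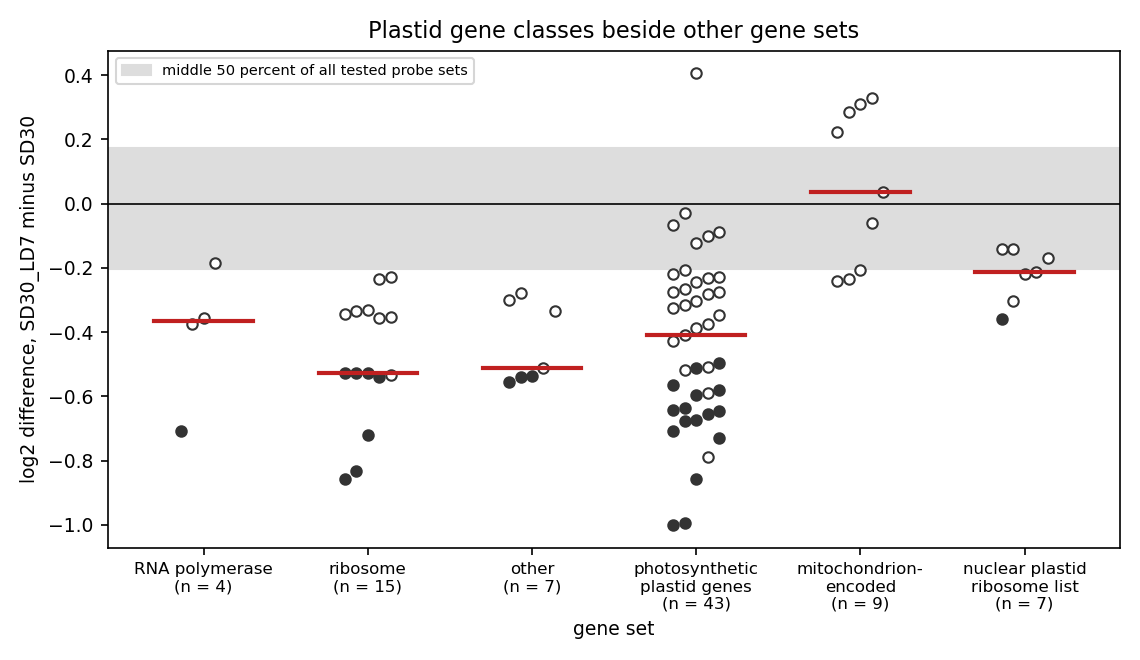
Log2 difference (SD30_LD7 minus SD30) of each tested gene in the 3 classes of plastid genes and in 3 other gene sets, with filled points for an adjusted p below 0.05, red lines at the medians and a grey band for the middle 50 percent of all tested probe sets. The medians of the 3 classes lie at -0.37, -0.53 and -0.51, near the -0.41 of the photosynthetic plastid genes, while the mitochondrion-encoded genes centre at 0.04.

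Markers of green leaf tissue, which is rich in plastid RNA, were measured for 2 of 6 genes in the list and went opposite ways. The Rubisco activase gene RCA had 5410.2 and 3785.5 in SD30 and 3444.4 and 3327.5 in SD30_LD7, below both short-day arrays, and did not pass (-0.42 ± 0.15, limma adjusted p = 0.085). The antenna protein gene LHCB4.3 rose from 126.7 and 131.5 to 435.3 and 413.1 (1.72 ± 0.16, limma adjusted p = 1.7e-05). The summed intensity of both genes was 5536.9 and 3917 in SD30 and 3879.7 and 3740.6 in SD30_LD7. Most of this sum came from RCA, so it does not show the rise of LHCB4.3. The part of leaf tissue in the lower plastid transcripts was not tested.

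The brightness of the probe sets moved with the calls. Of the 13 members with the lower mean intensities (313.8 to 3136) 8 were called, with a median log2 difference of -0.54, and of the 13 brighter ones (3683 to 9569) 3 were called, with a median of -0.34. Its part in the differences between members was not tested.

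**Figure D5:**
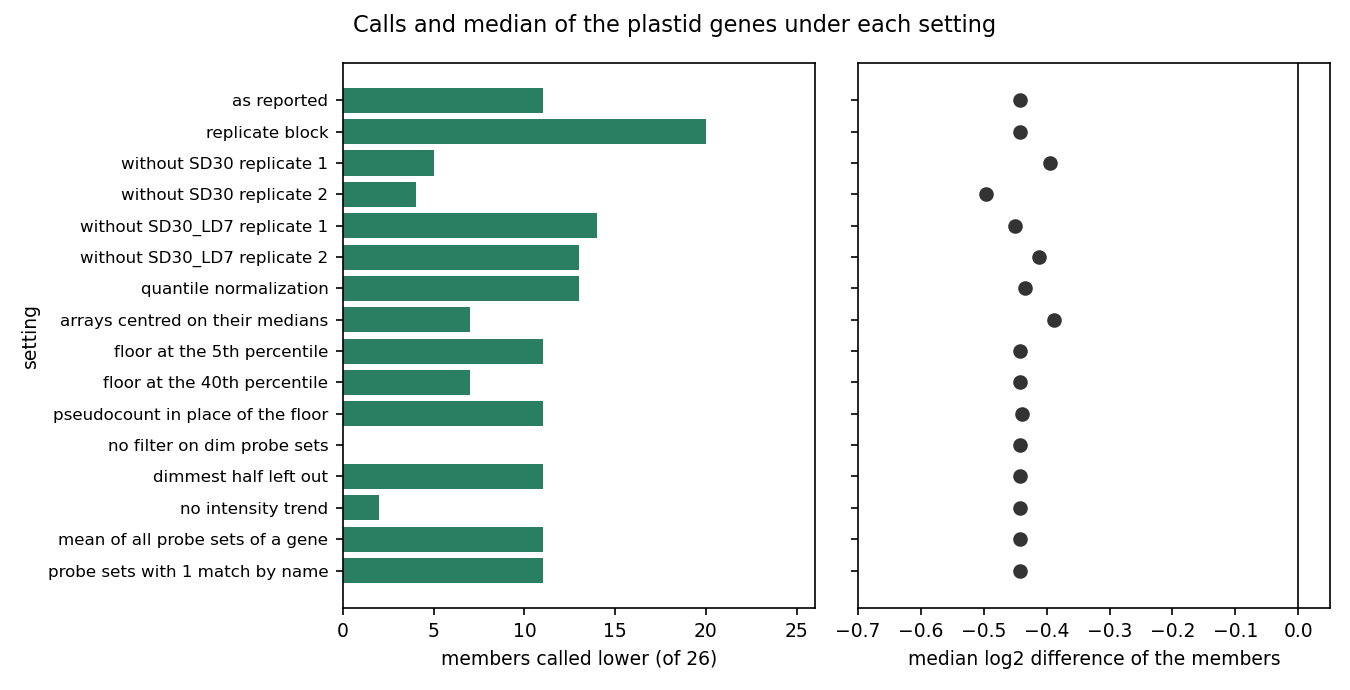
Number of the 26 plastid genes called lower (bars, left) and their median log2 difference (points, right) as reported and under each of 15 alternative settings, of which averaging the probe sets of a gene cannot change a member. The count ranges from 0 without a filter on dim probe sets to 20 with the replicate number as a block. The share of all probe sets tested called lower was 0.475% and 9.35% under these settings. The median of the members stays between -0.50 and -0.39.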

How the data were processed

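Per the labels, total RNA of dissected shoot apices was measured on 4 arrays, 2 per group. The deposited values are linear intensities, 1 for each probe set on each array. The authors had scaled the arrays, whose means without the lowest and highest 2 percent lay between 500.02 and 500.94. Which software did so is not stated in these sources. Precision is limited by the number of arrays.

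Probe sets were paired with genes by the platform annotation, which names 1 gene for 13513 probe sets, several for 503 and none for 8730, and with loci of the TAIR10.1 gene table by gene identifier (mitochondrial genes by symbol). Intensities below the 20th percentile (23.5) were set to it, log2 values were taken, and the dimmest 30 percent of probe sets (6824) and 64 controls were left out. All 26 members passed. SD30_LD7 was set against SD30 in limma 3.58.1 under R 4.3.3 (two-sided, intensity trend, 2 residual and 9.91 prior degrees of freedom), with Benjamini-Hochberg adjustment over 15922 probe sets and a threshold of 0.05. An exact test of 2 arrays against 2 cannot give a p below 0.333. The procedure was tested on simulated data with changes larger than that of any member, so that test does not bear on calls of the sizes reported. Figures were drawn with matplotlib 3.10.9.

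Members and lists were chosen with earlier results of these data known. All polymerase and other members, and the 4 largest and 4 smallest differences among ribosomal genes, are given by array, as are single arrays of rpl33 and rpl36, chosen after their values were seen. List genes outside the members are at most 4 a list, those with the smallest p, or all where fewer were matched (of the plastid ribosome list, the 1 called). Transcription units are those known for land plant plastids. As alternatives, each array was left out in turn, the replicate number entered as a block, arrays were quantile-normalized or median-centred, the floor was moved or replaced by a pseudocount, the filter on dim probe sets was changed, the intensity trend was dropped, probe sets of a gene were averaged, and those whose names mark several matches were removed.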

Additional observations from a re-analysis of the deposited data

How the results depend on the processing

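The number of members called lower was 11 as reported. It was 20 with the replicate block, 7 with arrays centred on their medians, 7 with a floor at percentile 40, 2 when the intensity trend was dropped and 0 when dim probe sets were kept, and leaving out 1 array gave 4 to 14. The replicate numbers do not pair the samples by their labels, and the deviations of same-numbered arrays correlated at 0.047 across all probe sets tested. The cause of these changes was not tested. Prior degrees of freedom were 9.91 as reported and 0.716 with dim probe sets kept. No member was called higher, and the class medians kept their sign, under every alternative that could change a member. Averaging the probe sets of a gene could not, since each member had 1, and removing probe sets with several matches removed no member and changed only the shared fit. For the medians, leaving out 1 array gave -0.52 to -0.16 (polymerase), -0.49 to -0.40 (ribosome) and -0.62 to -0.38 (other). The median over all members ranged from -0.50 to -0.39. Of single members, leaving out 1 array gave -0.59 to 0.13 for rps16, positive without SD30 replicate 2, and -0.82 to 0.11 for rpl33, positive without SD30_LD7 replicate 2. Neither positive value was called. Median centring turned the balance over all calls from 1305 lower and 1083 higher to 1049 lower and 1302 higher, and moved the median of all probe sets from -0.0021 to 0.053. With 2 arrays a group, the SE of the members was 0.10 to 0.23 on the log2 scale.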

Other observations

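Outside the members, 6 probe sets were each paired with 2 plastid entries of 1 symbol, as for genes with a copy in both inverted repeats, and so entered no class. All 6 had a negative log2 difference, from -0.50 to -0.06 with a median of -0.30, and 1 of them was called lower. Over all probe sets tested, 50.3% had a negative log2 difference and 8.2% were called lower. The call was that of an rps12 probe set (limma adjusted p = 0.035). Another rps12 probe set among them did not pass (limma adjusted p = 0.063).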
